A study of Homo sapiens with 8 samples.

Results

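Collagen hydroxylases were described in LP-1 cells, a line derived from a patient with multiple myeloma, in the original (WT) and the bortezomib-resistant (BR) form. The 7 genes were chosen by their symbols out of 18564 in the gene table: the collagen prolyl 4-hydroxylase catalytic (alpha) subunit genes P4HA1, P4HA2 and P4HA3, the gene P4HB for their shared beta subunit, and the lysyl hydroxylase genes PLOD1, PLOD2 and PLOD3. P4HA2 was picked because it was higher in BR, so its difference between the lines is described here without a test, and its relatives were added by family.

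WT and BR cells were both grown in RPMI-1640 medium. BR cells had been kept with bortezomib, a proteasome inhibitor used against myeloma, for 2 months per the labels, which do not say whether they are a single clone. Each line received DMSO vehicle or 25 nM SI-2, an inhibitor of the steroid receptor coactivator SRC-3, during 24 h. The 4 conditions (WT DMSO, WT SI-2, BR DMSO and BR SI-2) had 2 libraries apiece, 8 altogether. The study describes the vehicle and SI-2 RNA of BR cells as coming from biologically independent experiments. The labels give replicate numbers 1 and 2 and do not say which steps were separate for WT cells, so p-values measure the spread between these libraries.

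Prolyl 4-hydroxylases work in the endoplasmic reticulum, where they add hydroxyl groups to prolines of new collagen chains and so allow the triple helix to hold at body temperature. The enzyme is a tetramer with a pair of catalytic alpha subunits and a pair of beta subunits, and the beta subunit is protein disulfide isomerase, which also folds many other secreted proteins, immunoglobulins among them. Lysyl hydroxylases modify lysines of the same chains, which serve for sugar attachment and for cross-links between collagen molecules. Both families are 2-oxoglutarate-dependent and need iron and ascorbate. Plasma cells and myeloma cells are known for secreting immunoglobulin, not collagen.

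The 8 libraries held between 17997771 and 18570027 estimated reads assigned to genes. All 9 plasma cell markers on the list used here were detected, with summed levels of 1645 to 1996 FPKM (fragments per kilobase of transcript, scaled to the size of the library) in WT and 1204 to 1673 FPKM in BR. One library stood apart. BR SI-2 replicate 2 had the highest level of the 8 for all 12 fibroblast and stromal markers, at a summed 47.5 FPKM against 4.64 to 10.9 FPKM in the other 7. It had 1032 counts of COL1A1 against 2 to 6 and 998 counts of COL3A1 against 1 to 5. The excess was small for POSTN (1 count against 0), ACTA2 (297 counts against up to 234) and TAGLN (276 against up to 270). Values without that library are therefore given below for P4HA2, P4HB and the stromal markers, among others. In bulk RNA of this kind, fewer cells of a type and less RNA per cell cannot be told apart.

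Transcripts of both main alpha subunit genes carry 1 of 2 alternative coding exons, shown here because the transcript results below turn on them. Positions are on GRCh38 with GENCODE annotation, minus strand, and sequences run 5′ to 3′ along the transcript. The P4HA2 exons of 60 bases (chr5:132198321-132198380) and 66 bases (chr5:132198206-132198271) lie next to each other, with the 60-base exon upstream. Both P4HA1 exons have 71 bases, the upstream one at chr10:73044981-73045051 and the downstream one at chr10:73043887-73043957. Capitals mark the 28 of 71 positions at which the P4HA1 exons differ.
P4HA2 upstream exon: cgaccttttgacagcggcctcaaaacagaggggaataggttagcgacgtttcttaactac
P4HA2 downstream exon: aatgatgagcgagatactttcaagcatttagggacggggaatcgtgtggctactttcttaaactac
P4HA1 upstream exon: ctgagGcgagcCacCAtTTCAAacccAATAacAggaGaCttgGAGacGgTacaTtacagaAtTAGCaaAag
P4HA1 downstream exon: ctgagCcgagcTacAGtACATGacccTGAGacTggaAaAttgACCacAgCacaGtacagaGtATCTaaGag

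P4HA2 was the alpha subunit gene with the highest level in both lines, and more so in BR. Its level in WT was 26.6 FPKM in DMSO replicate 1, 21.6 in DMSO replicate 2, 36.3 in SI-2 replicate 1 and 24.5 in SI-2 replicate 2. In BR it was 65.4 FPKM in DMSO replicate 1, 85.0 in DMSO replicate 2, 74.3 in SI-2 replicate 1 and 87.99 in SI-2 replicate 2. Every BR library lay above every WT library, and the means were 78.2 ± 10.3 FPKM in BR and 27.3 ± 6.39 FPKM in WT (SD, n = 4 each). The difference was a log2 fold change of 1.45 with a standard error (SE) of 0.146 and a 95% interval of 1.13 to 1.77. It was 1.57 (SE 0.216) between the vehicle libraries and 1.34 (SE 0.215) between the SI-2 libraries, and 1.41 without the library with stromal RNA. These values come from the contrast that led to the choice of P4HA2 and carry no test.

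**Figure D1:**
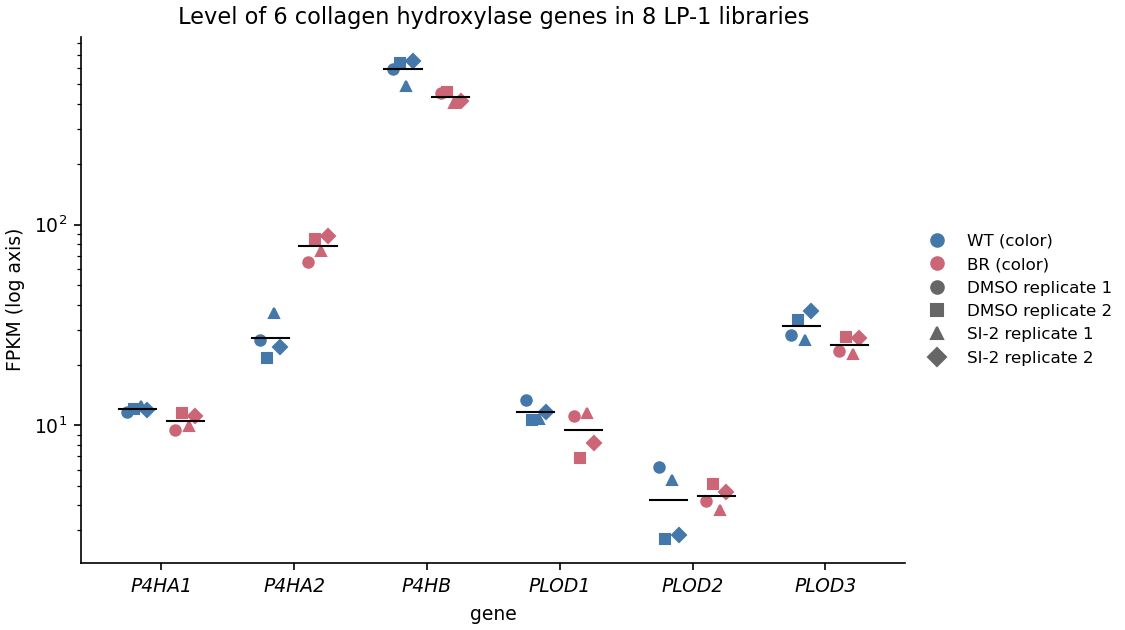
Level in FPKM (log axis) of the 6 collagen hydroxylase genes with a measurable level, one point per library, blue for WT and red for BR, with the symbol giving treatment and replicate and the black line the mean of 4 libraries. P4HA2 is the gene whose BR points all lie above its WT points, and the P4HA1 and P4HB points of BR all lie below those of WT.

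P4HA1, the alpha subunit gene most cell types express, had a lower level than P4HA2 in all 8 libraries. It was at 11.66, 12.04, 12.56 and 11.89 FPKM in WT (DMSO replicates 1 and 2, then SI-2 replicates 1 and 2) and at 9.47, 11.53, 9.9 and 11.11 FPKM in BR in the same order. The lines did not overlap, with BR lower. The log2 fold change of -0.22 (SE 0.0874) did not pass the test across all genes (adjusted p = 0.287, edgeR quasi-likelihood test with Benjamini-Hochberg adjustment, used for all fold changes below). P4HA3, the alpha subunit gene of more restricted expression, had 1 estimated count in WT DMSO replicate 1, 1 in BR SI-2 replicate 2 and 0 in the other 6 libraries. These are below the 3 counts that a count of 0 allows, so P4HA3 was not detectable at this depth, no fold was computed, and it passed no filter on low counts.

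P4HB had the highest level of the 7 genes, by a wide margin. Its levels in WT were 592, 642, 491 and 655 FPKM in DMSO replicates 1 and 2 and SI-2 replicates 1 and 2, and in BR 453, 456, 402 and 412 FPKM. All BR libraries lay below all WT libraries, the opposite order to P4HA2, although WT SI-2 replicate 1 was close to the BR range. The log2 fold change was -0.50 (SE 0.110, 95% interval -0.74 to -0.25), and its adjusted p of 0.0962 missed the threshold of 0.05. The call depended on 1 library and on the tool. Without WT SI-2 replicate 1 the log2 fold change was -0.58 and the adjusted p 0.0210, DESeq2 gave an adjusted p of 0.00420 with all libraries, and without BR SI-2 replicate 2 the value was -0.46 with an adjusted p of 0.256.

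The lysyl hydroxylase genes were led by PLOD3, whose protein also carries glycosyltransferase activity towards collagen. PLOD3 was at 28.1, 33.5, 26.8 and 37.1 FPKM in the WT libraries and at 23.4, 27.6, 22.7 and 27.3 FPKM in the BR libraries. The ranges overlapped, and the log2 fold change of -0.35 (SE 0.120) had an adjusted p of 0.242. PLOD1, the lysyl hydroxylase that mainly modifies the helical part of the chains, was at 13.5, 10.6, 10.8 and 11.7 FPKM in WT. In BR it was at 11.2, 6.91, 11.5 and 8.17 FPKM, with the lower values in the libraries numbered 2. Its log2 fold change was -0.32 (SE 0.182) with an adjusted p of 0.447.

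PLOD2, which acts on the telopeptides at the chain ends and is known for the stiff cross-links of scar tissue, had the lowest level of the 3. It was at 6.18, 2.72, 5.33 and 2.83 FPKM in WT and at 4.19, 5.08, 3.8 and 4.67 FPKM in BR. The BR values lay inside the WT range, and the log2 fold change was 0.03 (SE 0.254, 95% interval -0.53 to 0.59, adjusted p = 0.969). That interval spans changes in either direction.

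Over the whole table, 49 of 13520 genes tested (0.362%) passed the same test between BR and WT, 15 higher and 34 lower. None of the 5 members tested beside P4HA2 did, although 3 of them, P4HA1, P4HB and PLOD3, had an unadjusted p under 0.05, as had 1942 genes in the table. DESeq2 called 414 of 18401 genes, P4HB among them. The members whose BR libraries all lay below WT were 2 of 5, against 4.36% of all genes tested, and none of the 5 had all BR libraries above WT, against 3.84%. Within a single treatment none of the 5 was called, with a background of 0.0% under vehicle and 0.0072% under SI-2, where 540 and 568 genes had an unadjusted p under 0.05 and DESeq2 called 25 and 31. P4HB had log2 fold changes of -0.47 (SE 0.163, adjusted p = 0.967) under vehicle and -0.53 (SE 0.163, adjusted p = 0.998) under SI-2.

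**Figure D2:**
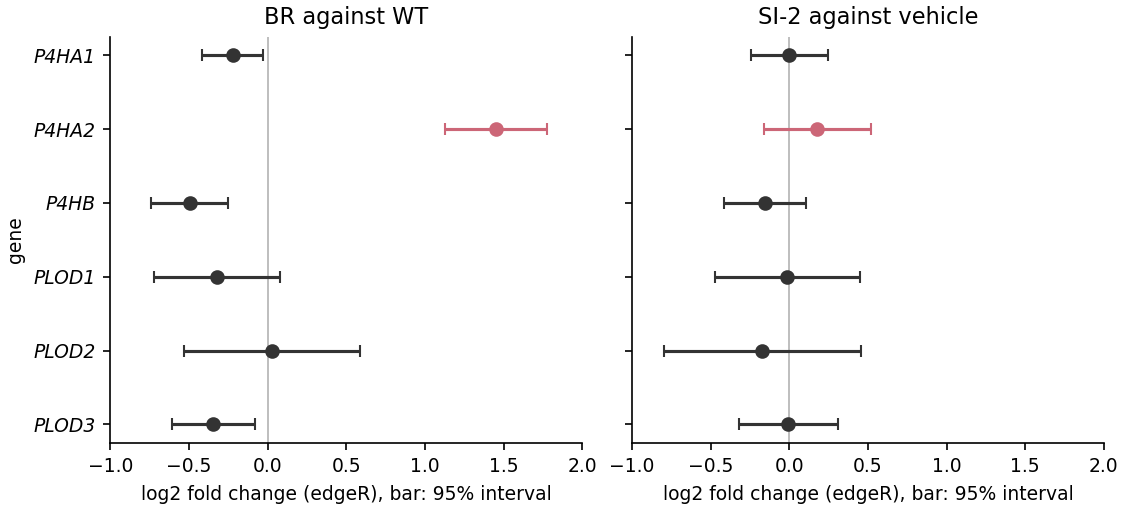
Log2 fold change from edgeR with its 95% interval for BR against WT (left) and SI-2 against vehicle as the mean of both lines (right), P4HA2 in red as the gene picked for its left-hand value. The left-hand value of P4HA2 is 1.45, the other 5 lie between -0.50 and 0.03, and all 6 intervals on the right include 0.

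The order of levels per kilobase changed between the lines in 1 place. In WT it ran P4HB, PLOD3, P4HA2, P4HA1, PLOD1, PLOD2 and P4HA3. PLOD3 and P4HA2 overlapped between libraries there, as did P4HA1 and PLOD1. In BR, P4HA2 stood second, above PLOD3 in every library, and P4HA1 and PLOD1 again overlapped.

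Among the alpha subunits, P4HA2 made up 69.5, 64.2, 74.3 and 67.4% of the summed FPKM in the WT libraries and 87.4, 88.1, 88.2 and 88.8% in the BR libraries. The means were 68.8 ± 4.25% and 88.1 ± 0.581% (SD, n = 4 each), so that the BR libraries lay within a narrower band than the WT libraries. The summed alpha subunit level was 39.3 ± 6.67 FPKM in WT and 88.7 ± 11.3 FPKM in BR. P4HB RNA exceeded alpha subunit RNA in all libraries, by 15.48, 19.09, 10.05 and 17.99 times in WT and by 6.05, 4.72, 4.77 and 4.16 times in BR. The mean ratio was 15.7 ± 4.03 in WT and 4.93 ± 0.798 in BR. As P4HA2 enters each of these sums, they are descriptions.

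**Figure D3:**
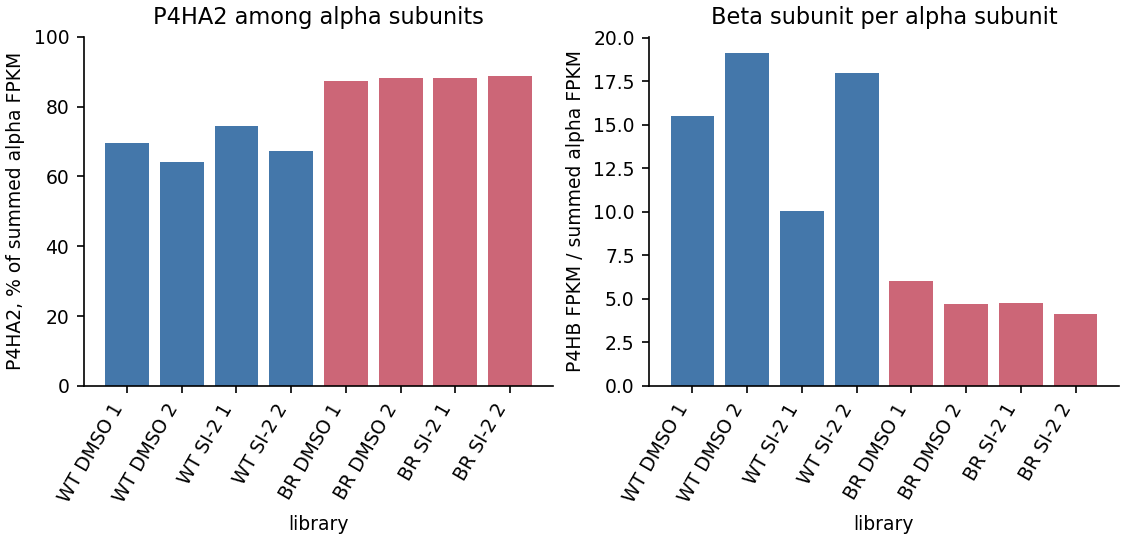
Left, P4HA2 as a percentage of the summed FPKM of P4HA1, P4HA2 and P4HA3; right, P4HB FPKM over that sum, one bar per library, blue for WT and red for BR. P4HA2 takes 64.2 to 74.3% in WT and 87.4 to 88.8% in BR, and the ratio of P4HB to alpha subunits is 10.1 to 19.1 in WT and 4.16 to 6.05 in BR.

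The summed level of the lysyl hydroxylases was 47.3 ± 3.57 FPKM in WT and 39.1 ± 0.940 FPKM in BR. PLOD3 made up 66.1 ± 6.54% of it in WT and 64.4 ± 5.17% in BR. The share of PLOD2 was 12.95 and 12.43% in the WT libraries numbered 1 and 5.81 and 5.49% in those numbered 2, while in BR it was 10.8 and 10.0% in the libraries numbered 1 and 12.9 and 11.6% in those numbered 2.

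That split by replicate number led, after the values were seen, to a comparison of the lines within each number. In it the vehicle and the SI-2 library of a line and number serve as its 2 libraries. The labels do not say whether these come from separate cultures, and their deviations from condition means correlated at 0.465 in WT and 0.409 in BR. SE and p-values here rest on the spread between those 2 libraries. That spread may be smaller than the spread between separate cultures. PLOD2 was lower in BR among the libraries numbered 1, at 0.678 and 0.713 of the WT level in the DMSO and SI-2 pairs, and higher among those numbered 2, at 1.87 and 1.65 times the WT level. The log2 fold change was -0.51 (SE 0.137, adjusted p = 0.181) in replicate 1 and 0.75 (SE 0.141, adjusted p = 0.00902) in replicate 2. The difference between them was 1.26 (SE 0.197, 95% interval 0.81 to 1.71), with an edgeR adjusted p of 0.0174. As the PLOD2 values led to this comparison, its p-values for PLOD2 are a description and not a test. Leaving out any of the 4 libraries numbered 2 kept the difference between 1.18 and 1.33 but raised its adjusted p to between 0.0934 and 0.132, WT DMSO, WT SI-2, BR DMSO and BR SI-2 replicate 2 alike.

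Of the 5 members beside P4HA2, 0 were called in replicate 1, with a background of 0.389% (54 genes, 1794 at an unadjusted p under 0.05, 195 called by DESeq2). In replicate 2, 4 of 5 were called, PLOD2 among them, where the background was 19.7%. In the difference of both it was 1 of 5, PLOD2, whose values led to the comparison, where the background was 6.32%. These backgrounds moved with single libraries: the 2735 genes called in replicate 2 became 221 without WT DMSO, 553 without WT SI-2, 1024 without BR DMSO and 354 without BR SI-2 replicate 2, and the 878 called in the difference became 0, 0, 3 and 2. In replicate 2, P4HB was lower in BR by a log2 fold change of -0.66 (adjusted p = 0.00766), PLOD1 by -0.65 (adjusted p = 0.0144) and PLOD3 by -0.44 (adjusted p = 0.0132). These calls rest on few libraries: without any 1 of the 4 libraries numbered 2 (WT DMSO, WT SI-2, BR DMSO or BR SI-2) the adjusted p of PLOD1, PLOD2, PLOD3 and P4HB rose to between 0.0574 and 0.133, except that P4HB stayed called without BR DMSO replicate 2. In replicate 1 P4HB, PLOD1 and PLOD3 had values of -0.32 (adjusted p = 0.307), -0.07 (adjusted p = 0.863) and -0.23 (adjusted p = 0.342). Their differences between the replicate numbers did not pass the test, at -0.34 (adjusted p = 0.246) for P4HB, -0.58 (adjusted p = 0.107) for PLOD1 and -0.21 (adjusted p = 0.350) for PLOD3. PLOD1 passed it without WT DMSO replicate 1 (adjusted p = 0.0319). P4HA1 stood at -0.29 (adjusted p = 0.244) and -0.16 (adjusted p = 0.261).

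P4HA2 was higher in BR in all 4 pairs of the same treatment and number. Its level in BR was 2.46 times that in WT in the DMSO pair and 2.05 times in the SI-2 pair of replicate 1, and 3.94 and 3.59 times in those of replicate 2. The corresponding log2 fold changes were 1.14 (SE 0.132) in replicate 1 and 1.79 (SE 0.134) in replicate 2, given as a description.

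**Figure D4:**
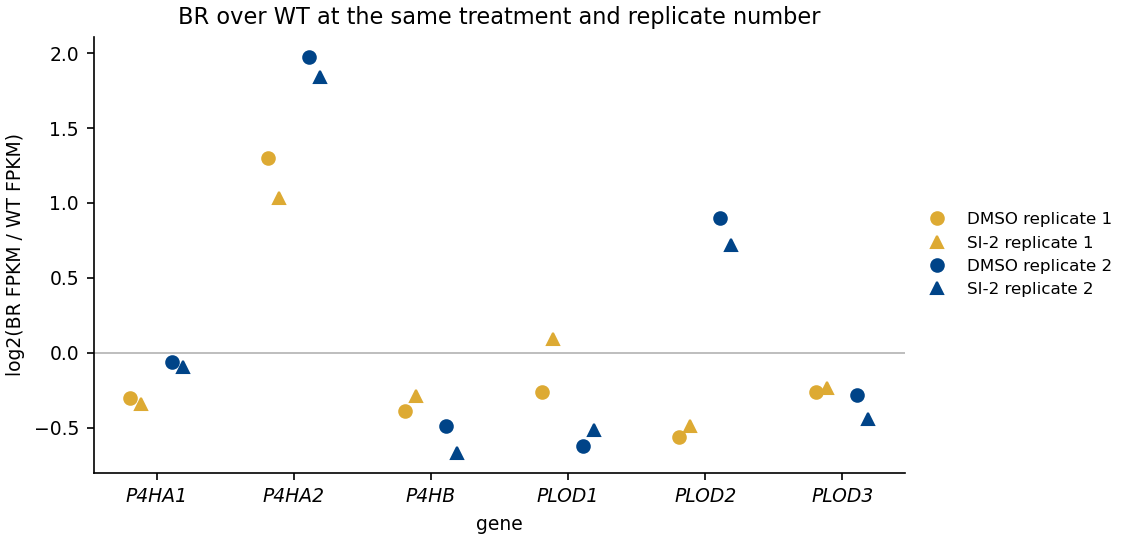
Log2 ratio of BR to WT FPKM for libraries of the same treatment and replicate number, yellow for replicate 1 and blue for replicate 2, circles for DMSO and triangles for SI-2. All 4 P4HA2 points lie above 0, and the PLOD2 points lie at -0.56 and -0.49 for replicate 1 and at 0.90 and 0.72 for replicate 2.

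Replicate 2 against replicate 1 over all 8 libraries, the remaining split in the labels, called none of the 6 members tested, with a background of 0.925% (125 genes, 2287 at an unadjusted p under 0.05, 765 by DESeq2). PLOD1 had a log2 fold change of -0.36 (SE 0.174, adjusted p = 0.325), PLOD2 of -0.40 (SE 0.223, adjusted p = 0.398) and PLOD3 of 0.28 (SE 0.135, adjusted p = 0.330).

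The SI-2 comparison asks whether 24 h of the SRC-3 inhibitor changed these genes. It took no part in the choice of P4HA2 and was tested for all 6 detected members. None was called as the mean of both lines, nor in BR or in WT alone, and for none did the difference in effect between the lines pass the test. The backgrounds were 0.0% in the mean of both lines, 0.0% in BR, 0.0% in WT and 0.0% for the difference between the lines, where an unadjusted p under 0.05 was reached by 260, 167, 74 and 74 genes and DESeq2 called 2, 3, 0 and 0. Without BR SI-2 replicate 1, which leaves the library with stromal RNA as the only SI-2 library of BR, 67 genes were called with SI-2 in BR, all higher, and none was a member. No member had an unadjusted p under 0.05 in the mean of both lines.

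P4HA2 was at 24.1 ± 3.54 FPKM with vehicle and 30.4 ± 8.34 with SI-2 in WT, and at 75.2 ± 13.8 and 81.1 ± 9.69 FPKM in BR (SD, n = 2 each). Its log2 fold change was 0.18 as the mean of both lines (SE 0.150, 95% interval -0.16 to 0.52, adjusted p = 0.9999), 0.29 in WT (SE 0.213) and 0.06 in BR (SE 0.210). The difference between the lines was -0.23 (SE 0.299, 95% interval -0.91 to 0.44). P4HB had -0.15 (SE 0.115, 95% interval -0.41 to 0.11) and PLOD2 -0.17 (SE 0.277, 95% interval -0.80 to 0.46), while P4HA1, PLOD1 and PLOD3 lay between -0.01 and -0.0009. The intervals give the sizes of change that these libraries leave possible.

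Transcript tables allowed the alternative exons to be followed. Transcripts with either P4HA2 exon held 85.6 to 90.1% of the P4HA2 FPKM. Of these, the downstream 66-base exon had 17.1, 10.8, 13.1 and 12.1% in the WT libraries and 23.4, 16.1, 23.1 and 16.1% in the BR libraries. The lines overlapped, since WT DMSO replicate 1 lay above the BR libraries numbered 2, and the means were 13.3 ± 2.72% in WT and 19.7 ± 4.12% in BR (SD, n = 4 each), given without a test. By treatment they were 16.9 ± 5.14% with vehicle and 16.1 ± 4.94% with SI-2.

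P4HA1 used its downstream 71-base exon for 64.7, 59.6, 51.4 and 68.7% of its FPKM in WT and for 64.5, 60.7, 69.2 and 63.4% in BR. The means of 61.09 ± 7.503% and 64.5 ± 3.54% differed by less than the spread between libraries (p = 0.486, adjusted p = 0.631, exact two-sided permutation test over 70 arrangements, for the single transcript with that exon). By treatment the means were 62.4 ± 2.64% and 63.2 ± 8.31% (exact permutation p = 0.943). Of 13 transcripts of P4HA1, P4HB, PLOD1 and PLOD2 tested by line, none was called, and the smallest exact permutation p was 0.0571. With 70 arrangements a p cannot fall below 0.0286, so no transcript on its own could have passed the adjustment over 13, or over the 28 below. Of 28 tested by SI-2, P4HA2 included, none was called, and 1, a minor P4HA2 transcript, reached the smallest p this design allows, 0.0286 (exact permutation, adjusted p = 0.800). P4HB had 94.1 ± 0.853% of its FPKM in 1 transcript in WT and 92.5 ± 2.41% in BR.

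**Figure D5:**
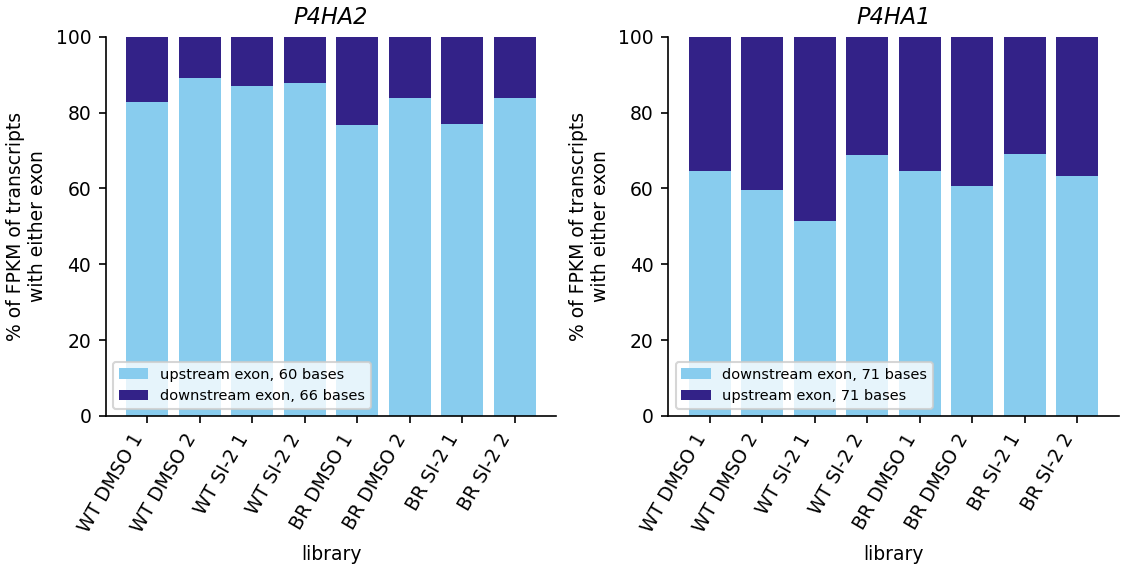
Share of the FPKM of transcripts that carry either alternative exon, one bar per library, for P4HA2 (left) and P4HA1 (right). The downstream P4HA2 exon takes 10.8 to 17.1% in WT and 16.1 to 23.4% in BR, and the downstream P4HA1 exon 51.4 to 69.2% over all 8 libraries.

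P4HA1, P4HA2 and PLOD2 are textbook targets of hypoxia-inducible factors (HIF), so the promoters and the other hypoxia genes were examined. RefSeq sequences (GRCh38.p14) matched 6 of the 7 members. The 250 bases before the start site of P4HA1 (chr10:73096867-73097116, minus strand) and P4HA2 (chr5:132227092-132227341, minus strand) are shown to compare these paralogs. The HIF core motif was searched as ACGTG or GCGTG on both strands, which can overlap, and capitals mark matches.
P4HA1 promoter: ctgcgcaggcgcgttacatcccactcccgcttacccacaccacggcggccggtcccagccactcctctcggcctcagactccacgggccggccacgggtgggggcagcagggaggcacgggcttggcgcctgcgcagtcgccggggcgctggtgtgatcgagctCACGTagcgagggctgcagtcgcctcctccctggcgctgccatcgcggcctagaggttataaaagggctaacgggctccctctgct
P4HA2 promoter: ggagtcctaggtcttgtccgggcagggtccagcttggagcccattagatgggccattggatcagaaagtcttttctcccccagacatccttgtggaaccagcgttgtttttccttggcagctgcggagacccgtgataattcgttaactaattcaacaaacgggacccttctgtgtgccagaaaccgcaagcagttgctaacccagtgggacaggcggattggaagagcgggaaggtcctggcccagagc
P4HA1 and P4HB had 1 match each, PLOD1 had 2, PLOD2 had 3, and P4HA2 and PLOD3 had 0. Only these 250 bases were searched, not other start sites or more distant sequence. Of 35116 promoters of the same length, 43.2% held a match. The endoplasmic reticulum stress element (ERSE), searched by its consensus on both strands, was in 26 of the 35116 (0.0740%) and in none of the members.

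Of 30 hypoxia response genes listed, 27 were tested and 0 were called between BR and WT. Over all 13520 genes 0.362% were called, so 0 calls in this list or in the smaller lists below is near that share. For DESeq2 calls in these lists the background was larger, 414 of 18401 genes. Of the 27, 10 had positive and 17 negative values, with a median log2 fold change of -0.08, against 0.004 for all genes. LDHA, the lactate dehydrogenase of glycolysis, had 393 to 424 FPKM in WT and 463 to 537 in BR, with a log2 fold change of 0.28 (SE 0.0762, adjusted p = 0.169, called by DESeq2). DDIT4, a stress-induced inhibitor of mTORC1 signalling, had a value of -0.89 (SE 0.336, adjusted p = 0.273). Of the HIF subunit genes, 5 of 6 were tested and 0 called (median 0.07), with 0.17 (SE 0.185) for HIF1A and 0.16 (SE 0.143) for its partner ARNT.

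Lists of partners and substrates of the hydroxylases were read next, where 0.362% of all genes tested were called by edgeR and 414 of 18401 by DESeq2. Of 27 genes for the folding, transport and maturation of collagen, 21 were tested, 0 were called, and the median was -0.14. PPIB, a prolyl isomerase that works with the lysyl and prolyl hydroxylases in the endoplasmic reticulum, had a log2 fold change of -0.64 (SE 0.189, adjusted p = 0.190). MIA2, which takes part in the export of large cargo such as collagen, had -0.46 (SE 0.0984, adjusted p = 0.0893). DESeq2 called both lower. Of 44 collagen chain genes 16 were tested, 0 were called and the median was -0.02. COL4A4 had -0.32 (SE 0.161) and COL4A3 -0.06 (SE 0.0925), at 4.21 to 6.59 and 4.80 to 5.24 FPKM in WT. COL14A1, a chain found along collagen fibrils, was at 0.28 to 0.50 FPKM in WT and 0.62 to 2.39 FPKM in BR (1.52, SE 0.412, adjusted p = 0.164) and was called higher by DESeq2. How far this rests on the library with stromal RNA is not reported here. The summed collagen chain level was 16.5 to 20.1 FPKM in WT and 16.7 to 53.1 FPKM in BR, the highest in the library with stromal RNA. P4HA2 was at 87.99 FPKM in that library and at 65.4 to 85.0 FPKM in the other BR libraries, where the summed stromal markers were at 5.66 to 10.9 FPKM, against 4.64 to 10.6 FPKM in WT.

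Of 20 proteins with collagen-like domains, which also need proline hydroxylation, 6 were tested and 0 called (median -0.13). CTHRC1, a secreted protein with a short collagen-like stretch, was at 172 to 270 FPKM in WT and 157 to 235 in BR (-0.40, SE 0.180, adjusted p = 0.340), and SCARA3 at 1.07 to 1.66 and 1.12 to 1.66 FPKM (-0.13, SE 0.174, adjusted p = 0.763). CTHRC1 alone thus had a higher FPKM level than all collagen chain genes summed, in each line.

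Among 20 protein disulfide isomerases, the family of P4HB, 16 were tested and 0 called, 15 of them with negative values and a median of -0.22. TXNDC5 had -0.15 (SE 0.127, adjusted p = 0.621), PDIA6 had -0.35 (SE 0.123, adjusted p = 0.249), and DESeq2 called ERP44 lower. Of the other 18 hydroxylases that use 2-oxoglutarate, 16 were tested and 0 called, 8 in each direction with a median of -0.003; OGFOD1 had -0.02 (SE 0.110) and JMJD6 0.06 (SE 0.103). All 11 genes of ascorbate and iron supply were tested and 0 called (median -0.27). FTL, the ferritin light chain, had -0.60 (SE 0.130, adjusted p = 0.0895, called by DESeq2) and FTH1, the heavy chain, -0.10 (SE 0.0915).

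For proline supply, 7 of 9 genes were tested and 0 called, against 0.362% of all genes tested, with a median of 0.16. PYCR1, which carries out the last step of proline synthesis, had -0.33 (SE 0.165, adjusted p = 0.395). Among 24 genes of the amino acid response, 22 were tested, all 22 had negative values with a median of -0.50, and 1 was called. The lists share genes: DDIT4 and STC2 are also in the hypoxia list, and PYCR1 and ALDH18A1 in that of proline supply. INHBE, an inhibin subunit gene induced by that response, was lower in BR at 11.9 to 21.9 FPKM against 31.3 to 62.6 in WT (log2 fold change -1.61, SE 0.251, adjusted p = 0.0237). It was not called without BR DMSO replicate 2, BR SI-2 replicate 1, BR SI-2 replicate 2, WT DMSO replicate 2 or WT SI-2 replicate 2, nor with condition terms. DESeq2 called 3 genes of the list lower, INHBE, SLC3A2 (-0.57, SE 0.142, edgeR adjusted p = 0.138) and TRIB3 (-0.75, SE 0.177, edgeR adjusted p = 0.118). Over all genes DESeq2 called 414 of 18401, 274 of them lower. Plasma cell markers had a median of -0.23 with 9 of 9 tested and 0 called, XBP1 at -0.31 (SE 0.146, adjusted p = 0.365) and MZB1 at -0.67 (SE 0.202, adjusted p = 0.201). Of the 12 stromal markers 3 were tested and 0 called, with a median of 0.26, or -0.15 without BR SI-2 replicate 2, and values of 0.18 (SE 0.417) for ACTA2 and 0.26 (SE 0.216) for TAGLN. The part of these lists in the P4HA2 and P4HB values was not tested. As the mean of both lines, SI-2 called no gene in these lists and 0 of all 13896 genes tested, so this count says nothing particular to the lists.

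P4HA2 lies on chromosome 5, and its 5 nearest genes of the table on each side in RefSeq order were read to see whether the difference extended along the chromosome. Of these 10, 7 were tested and 0 called, where 0.362% of all genes tested were called. On one side CDC42SE2 had a log2 fold change of 0.26 (SE 0.128), RAPGEF6 of 0.15 (SE 0.135), FNIP1 of 0.07 (SE 0.184) and ACSL6 of -0.23 (SE 0.245). On the other SLC22A5 had 0.13 (SE 0.188), C5orf56 -0.27 (SE 0.206) and IRF1, an interferon response factor, -0.20 (SE 0.107). MEIKIN, PDLIM4 and SLC22A4 were too low to test. The tested neighbours thus lay between -0.27 and 0.26, and P4HA2 at 1.45. The antisense gene P4HA2-AS1 and MIR6830 overlap P4HA2 and were not among the genes of the gene table. Whether the libraries keep the strand of the RNA is not given in the sources used here.

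Across the 8 libraries, the genes whose pattern was most like that of P4HA2 included PECAM1, KIAA1549L, RTL6 and TTN, out of 11272 with a mean of at least 50 counts. Likeness was the root mean square difference of mean-centred log2 CPM (counts scaled to library size), on which scale P4HA2 itself varied by 0.760. The distance was 0.159 for PECAM1, an adhesion molecule of endothelial and blood cells, at 5.76 to 10.96 FPKM in WT and 20.8 to 22.9 in BR. KIAA1549L, RTL6 and TTN, the gene of the muscle protein titin, stood at 0.259, 0.265 and 0.296. The relatives of P4HA2 were far down the same order, PLOD2 at 0.735 (rank 4057), P4HA1 at 0.864 (rank 8494), PLOD3 at 0.952 (rank 10042), PLOD1 at 0.992 (rank 10411) and P4HB at 1.03 (rank 10685). With 4 of the 8 libraries from each line, the line difference enters this measure, and the order is a description.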

How the data were processed

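RNA of 8 LP-1 libraries was extracted with Trizol and sequenced on a BGISEQ-500. The authors deposited estimated counts and FPKM per gene and per transcript; their processing notes name BWA, Bowtie2, RSEM and hg19. Tables of the authors' SI-2 comparisons (log2 fold changes, p- and q-values) and 8 columns of condition averages were not used. Estimated counts were rounded and tested with edgeR 4.0.16 (quasi-likelihood, TMM, filterByExpr, Benjamini-Hochberg, adjusted p under 0.05). BR against WT, and replicate 2 against 1, had a fit of their own over 4 libraries a side, without further terms (13520 genes). The SI-2 contrasts and those within a treatment came from a fit of 4 conditions (13896 genes). The lines within a replicate number came from a fit of the 4 groups of line and number, without treatment (13896 genes). Alternatives used DESeq2 1.42.0, limma 3.58.1 on log2(FPKM + 1) or log2(FPKM + 0.1), other scalings and filters, and each library left out. Transcript shares were FPKM shares within a gene, for transcripts with a mean count of at least 10. The scripts were tested on simulated data.

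The members and gene lists were chosen with earlier results of these data known. Named genes were the members, the called genes of each list or, with none, its 2 of highest FPKM, 5 neighbours on each side and the 6 genes most like P4HA2; some of these are not reported here. COL1A1, COL3A1, COL14A1, ERP44, SLC3A2 and TRIB3 were named after their values were seen. Listed symbols with no row used here were ADAMTS14, COL6A5, FCN3, SFTPA1, CA9 and PRODH2.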

Additional observations from a re-analysis of the deposited data

Results flagged for a closer look

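In BR SI-2 replicate 2, 9 stromal marker genes summed to 2596 counts, against 8 to 17.1 counts in the other 7 libraries. These 9 were kept for having at most 10 counts in each other library, so the low sums there follow from that choice. All 12 markers summed to 47.5 FPKM in this library, against 4.64 to 10.9 FPKM in the other 7. By the rule used, this library stood apart from the other BR libraries. Of 27 groups of 4 libraries examined in this way, chance alone would set apart about 1 in 20. That rate does not hold for genes chosen as these 9 were. P4HA2 in that library was at 87.99 FPKM and at 65.4 to 85.0 FPKM in the other BR libraries, and P4HB was at 412 FPKM and at 402 to 456 FPKM.

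The BR against WT difference of PLOD2 was larger in replicate 2 than in replicate 1 by 1.26 on the log2 scale (SE 0.197, adjusted p = 0.0174, edgeR), with both pairs of replicate 1 negative and both pairs of replicate 2 positive. The comparison was chosen after seeing the PLOD2 values, so its p-values for PLOD2, from edgeR and DESeq2 alike, are a description and not a test. They rest on the spread between the vehicle and SI-2 library of a line and number. DESeq2 gave an adjusted p of 5.86e-04.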

How the results depend on the processing

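P4HA2 was higher in BR under every alternative run, with log2 fold changes of 1.36 to 1.60 when a library was left out. Under SI-2 alone it was 1.11 without WT SI-2 replicate 2 and 1.61 without WT SI-2 replicate 1. Of the 5 other members 0 were called, 1 (P4HB) under DESeq2 and 0 to 1 when a library was left out, the 1 without WT SI-2 replicate 1. For the line difference between replicate numbers, 1 member was called and 0 to 2 when a library was left out (PLOD2 lost without any library numbered 2, PLOD1 gained without WT DMSO replicate 1). Signs of values near 0 changed when a library was left out: PLOD2 between the lines ranged from -0.13 to 0.28 (-0.03 without BR DMSO replicate 2, -0.12 without WT SI-2 replicate 2), P4HA2 with SI-2 in BR from -0.097 to 0.22 (-0.022 without BR SI-2 replicate 2), its SI-2 difference between lines from -0.48 to 0.031, and PLOD2 with SI-2 from -0.43 to 0.19 (0.015 without WT SI-2 replicate 2). The cause was not tested.

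Counts over all genes moved more. BR against WT called 49 genes, 414 by DESeq2, 18 with condition terms and 21 (without WT SI-2 replicate 2) to 125 (without WT SI-2 replicate 1) when a library was left out. Under SI-2 alone it called 1 gene, and 67 without BR SI-2 replicate 1. The line difference between replicate numbers called 878, and 0 to 1748 when a library was left out. Replicate 2 against 1 called 125, 765 by DESeq2 and 0 with condition terms. With the replicate number as a block, BR against WT called 155 genes and 0 of the 5 members, P4HB at -0.49 (adjusted p = 0.0658). Deviations of same-numbered libraries from their condition means correlated at 0.465 between DMSO and SI-2 in WT and at 0.409 in BR. Across the lines the values were 0.202, 0.184, 0.0890 and -0.155. Whether same-numbered libraries shared a culture was not tested. The block changed no call on a member. Depth limits P4HA3, and 2 libraries a condition limit the contrasts within a treatment.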
